A study of Mus musculus with 899 samples.

Results

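The 44 plasma samples described here were drawn from C3H mice 2 months after whole thorax lung irradiation or sham treatment, and they are 44 of the 899 plasma samples in the series. They were chosen by their labels alone (strain, set code in the title, time point and irradiation entry), and no measured value entered the choice. Of these samples, 28 came from irradiated mice (15 females and 13 males) and 16 from sham mice (8 females and 8 males). The study asked whether microRNA (miRNA) circulating in plasma can mark late lung and heart injury, and it followed C3H and C57Bl/6 mice by repeated bleeding from before exposure onwards. All 44 mice were of the strain C3Hf/Sed/Kam, which tends to develop pneumonitis after irradiation of the chest, and the labels name no engineered allele. The irradiated mice had received a single X-ray exposure of the thorax with the rest of the body under lead, and the sham mice had received none. The age of the mice is not among the labels. Titles also carry a letter, A or B, whose meaning the labels do not give. Mice with the letter A had a day 2 sample and mice with the letter B a day 5 sample. The month 2 mice by letter were 7 A and 8 B irradiated females, 8 A and 5 B irradiated males, and 4 sham mice in each sex and letter. Only irradiated mice still alive at month 2 could be sampled, which limits these groups as a picture of all mice exposed.

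A miRNA is a short RNA that pairs with messenger RNA through its seed, bases 2 to 8, and lowers the output of the messages it matches. Each hairpin precursor can give a mature strand from its 5' arm and another from its 3' arm. Cells release miRNA into blood inside vesicles or bound to proteins, so plasma mixes miRNA from blood cells, vessels and solid organs. The miR-34 family is switched on by p53, the transcription factor activated by DNA damage. The miR-202 arms are made mainly in the gonads, miR-122 in hepatocytes, miR-451a and miR-144 in red blood cells, and the miR-200 and miR-183 families in epithelium. In plasma, the number of cells that release a miRNA and the amount each of them releases cannot be told apart.

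The miRNA on which the results turn are printed here 5' to 3' with the seed in capitals, as given in RefSeq on the mouse assembly GRCm38.p6. Of 483 miRNA tested, 415 matched a mature sequence in that table. The first set holds both arms of miR-202, which were the miRNA lower after irradiation. The seed of the 3' arm differs from that of let-7g-5p at 1 of 7 positions (G8U, let-7g-5p first, counted from the 5' end), and let-7g-5p is shown for that reason.
miR-202-5p: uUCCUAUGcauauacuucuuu
miR-202-3p: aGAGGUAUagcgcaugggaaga
let-7g-5p: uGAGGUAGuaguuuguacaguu

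The miR-202 arms come from chr7:139957732-139957752 (5' arm) and chr7:139957695-139957716 (3' arm) on the minus strand. Their hairpin, chr7:139957689-139957760, lies in an exon of the long noncoding RNA gene Gm2044 on the same strand and in an intron of Gm16201 on the other strand. It is printed whole, with both mature arms in capitals, because both arms were measured.
Mir202: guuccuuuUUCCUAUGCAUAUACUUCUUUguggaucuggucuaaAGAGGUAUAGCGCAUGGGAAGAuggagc

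The second set holds miR-34c-3p, the miRNA called higher after irradiation, with members of its family that did not pass. The 3' arms of miR-34c and miR-34b have the same seed and are alike at 17 of 22 positions. The 5' arms of miR-34a, miR-34b and miR-449a share another seed. No sequence is shown for miR-34c-5p.
miR-34c-3p: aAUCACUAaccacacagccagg
miR-34b-3p: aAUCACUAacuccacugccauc
miR-34a-5p: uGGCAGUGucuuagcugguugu
miR-34b-5p: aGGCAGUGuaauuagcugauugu
miR-449a-5p: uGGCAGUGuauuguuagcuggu

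The miR-34c-3p sequence lies at chr9:51103044-51103065 and that of miR-34b-3p at chr9:51103574-51103595, both on the minus strand within an intron of Btg4, a gene on the plus strand. The miR-34a-5p sequence lies at chr4:150068473-150068494 on the plus strand, in an exon of the unnamed transcript Gm37795.

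The libraries held 785313 to 2636488 miRNA reads in irradiated mice (median 1437384) and 1082130 to 2681590 in sham mice (median 1916690). Irradiated mice thus had fewer reads (permutation test, two-sided, p = 0.00482, adjusted p = 0.0241 over 5 library measures). The number of miRNA with a read was 357 to 543 in irradiated and 403 to 547 in sham mice (p = 0.116). In all 44 libraries miR-16-5p, abundant in blood cells, took the most reads, from 35.3% to 61.8% in irradiated and from 28.95% to 61.1% in sham mice. The summed share of the red blood cell miRNA was 4.69% to 11.9% in irradiated and 3.64% to 9.34% in sham mice (p = 0.558). The part of depth in the results below was not tested. Levels and fitted effects are given relative to the scaled library size, while summed reads and numbers of mice with a read are not scaled.

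Irradiated C3H mice at month 2 had more miR-34c-3p and less miR-202-5p and miR-202-3p than sham mice, and the miR-202 difference was found in females and not in males. With edgeR's quasi-likelihood test over 483 miRNA, 3 passed an adjusted p of 0.05 (0.621% of those tested), 1 higher (0.207%) and 2 lower (0.414%). At an unadjusted p under 0.05, 14 were higher (2.9% of those tested) and 29 lower (6%), together 8.9%. The scatter of p against fold change shows how far these 3 stood from the others.

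**Figure D1:**
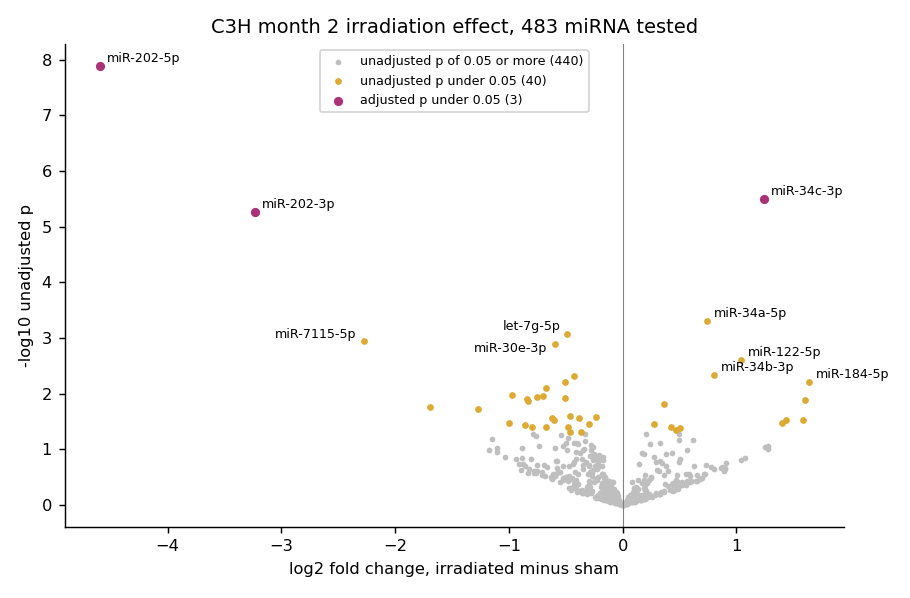
Each point is 1 of 483 miRNA in C3H plasma at month 2, with the log2 fold change of irradiated over sham mice on the x axis and -log10 of the unadjusted p of edgeR's test on the y axis. The 3 purple points (adjusted p under 0.05) are miR-202-5p at -4.59, miR-202-3p at -3.23 and miR-34c-3p at 1.24, and the 40 yellow points have an unadjusted p under 0.05 only.

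In female plasma miR-202-5p was abundant enough to be read in every sham mouse and was nearly absent after irradiation. Sham females had a log2 CPM (the usual scaled count relative to library size, with a prior count of 2) of 2.53 at the lowest, 4.55 at the median and 5.85 at the highest. Irradiated females were at 0.23 at the lowest and at the median, the value of a library with no read, and at 1.29 at the highest. The groups did not overlap, since all 15 irradiated females were below the lowest sham female. Summed over mice, 404 reads fell in 8 sham females and 4 in 15 irradiated females. Divided by the summed reads of each group, that is 27.2 CPM against 0.178 CPM, a ratio of 152.5. Its 95% Poisson interval of 59.1 to 562.5 covers counting error only, with each read taken as an independent count. Reads were present in 8 of 8 sham and 2 of 15 irradiated females (Fisher's exact test, two-sided, p = 9.18e-05), and the means of log2 CPM differed by -4.12 (exact permutation test, two-sided, p = 2.04e-06). The fitted fold change in females was -6.84 on the log2 scale (SE 0.75, edgeR's quasi-likelihood test, adjusted p = 2.34e-16). Here and below, the SE of an edgeR fit was worked back from its test statistic and is approximate.

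The 3' arm moved with the 5' arm in females. Sham females had a log2 CPM of miR-202-3p of 2.16 at the lowest, 3.06 at the median and 4.17 at the highest, and irradiated females of 0.23, 0.23 and 0.86. Again all 15 irradiated females were below the lowest sham female (exact permutation test, two-sided, p = 2.04e-06). There were 118 reads in the 8 sham females and 2 in the 15 irradiated females, a ratio of 89.1 (95% Poisson interval 24.1 to 744.3). The fitted log2 fold change in females was -5.78 (SE 0.84, adjusted p = 3.12e-09).

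Male plasma held little miR-202 in either group. For miR-202-5p, 4 of 8 sham males had a read and 5 of 13 irradiated males, with 16 reads in each group (Fisher's exact test, p = 0.673). Sham males were at a log2 CPM of 0.23, 0.58 and 2.04 (lowest, median, highest) and irradiated males at 0.23, 0.23 and 3.13. The values overlapped, and the difference of means was -0.07 (exact permutation test, two-sided, p = 0.871). For miR-202-3p, 1 of 8 sham males had a single read, and 4 of 13 irradiated males had 13 reads in all (Fisher's exact test, p = 0.606). In a model with sex in each group, the fitted effect in females minus that in males was -6.72 for miR-202-5p (SE 1.22, adjusted p = 1.12e-05) and -8.37 for miR-202-3p (SE 1.40, adjusted p = 1.56e-06). The latter includes a male fit of 2.59 (SE 1.07, adjusted p = 0.497) that rested on a single sham read, and it ran from -8.40 to -3.46 over the alternatives that gave a value, past the threshold in each. These were the 2 miRNA past the threshold for a difference between sexes (0.414% of those tested). With both sexes pooled the fitted effects were -4.59 (SE 0.80, adjusted p = 6.29e-06) for miR-202-5p and -3.23 (SE 0.71, adjusted p = 0.000881) for miR-202-3p. The pooled call for miR-202-3p was lost with the mouse as a random replicate block (adjusted p = 0.224), with sex in the model (adjusted p = 0.0828) and with limma-voom (adjusted p = 0.288). With the study's own normalization, neither arm passed in the pooled fit (-2.14 and adjusted p = 0.0687 for miR-202-5p, -1.17 and adjusted p = 0.19 for miR-202-3p).

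**Figure D2:**
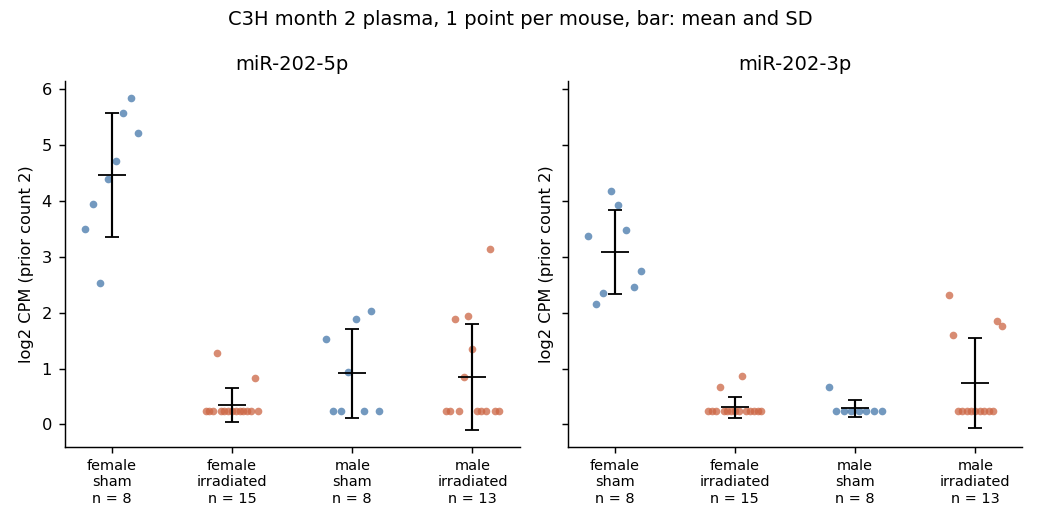
Each point is 1 mouse, with log2 CPM (prior count 2) on the y axis for the 2 arms of miR-202, by sex and treatment, and bars give the mean and SD. Sham females sit between 2.53 and 5.85 for the 5' arm and between 2.16 and 4.17 for the 3' arm, all above the 15 irradiated females. Most males sit at 0.23, the value without a read, except sham males for the 5' arm, of whom 4 of 8 had a read.

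The subgroups by letter showed the same direction in females. The mean of miR-202-5p in irradiated minus sham females was -3.21 in mice with letter A and -5.03 in those with letter B, and for miR-202-3p -2.72 and -2.84. In males the 4 differences ranged from -0.28 to 0.63. Without the females with letter B, the pooled calls of both arms were lost. Over the alternative analyses, the pooled call held in 12 of 15 for miR-202-5p and in 7 of 14 for miR-202-3p.

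Because the mice were bled repeatedly, each could be set against its own earlier sample. All 15 irradiated females had less miR-202-5p at month 2 than before irradiation (mean change -3.93, SD 1.55, on the log2 CPM scale), and all 15 had less than at month 1 (mean change -1.92, SD 1.02). Of the 8 sham females, 5 had less than before irradiation (mean change 0.07, SD 1.41) and 4 less than at month 1. The fall in irradiated females was larger than the spread of the sham females around 0. From month 2 to month 3, the 14 irradiated females with both samples changed by -0.16 (SD 0.81).

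Among irradiated C3H females of all sets, the mean log2 CPM of miR-202-5p was 4.12 (SD 1.27, n = 32) before irradiation, 6.65 (SD 1.35, n = 16) at day 2, 4.18 (SD 1.07, n = 16) at day 5, 2.71 (SD 1.29, n = 29) at month 1, 0.34 (SD 0.30, n = 15) at month 2, 0.51 (SD 0.70, n = 14) at month 3 and 0.23 (n = 8, no read in any mouse) at month 4. The sham females stayed between 3.46 (SD 1.29, n = 8, month 4) and 5.15 (SD 0.85, n = 8, month 3). The mean of irradiated females was thus above the range of the sham means at day 2, within it at day 5, and below it from month 1 on. With the sexes pooled, the day 2 effect was 1.98 for miR-202-5p (SE 0.68, edgeR, adjusted p = 0.0584), which did not pass. For miR-202-3p it was 2.46 (SE 0.68, edgeR, adjusted p = 0.0158). The fitted effect in females was -1.50 (SE 0.39, adjusted p = 0.0112) at month 1, -6.84 at month 2 and -6.23 (SE 0.69, adjusted p = 7.33e-16) at month 3. Before irradiation it was -0.06 (SE 0.38). The 3' arm was fitted lower before irradiation in the later irradiated females, without passing (-0.87, SE 0.48, edgeR, unadjusted p = 0.0669, adjusted p = 0.994). With the sexes pooled that earlier difference of miR-202-3p was -0.95 (SE 0.44, edgeR, unadjusted p = 0.0323, adjusted p = 0.695). With both sexes pooled, the month 2 effect minus the effect before irradiation passed for 3 miRNA (0.621% of those tested), and miR-202-3p was not among them. For miR-202-5p this difference was -4.49 (edgeR, adjusted p = 0.000809). The call was lost with the mouse as a random replicate block (-2.65, adjusted p = 0.468) and kept with the mouse as a fixed block (-2.66, adjusted p = 0.0167). Both block fits used limma-voom, which without a block also lost the call.

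**Figure D3:**
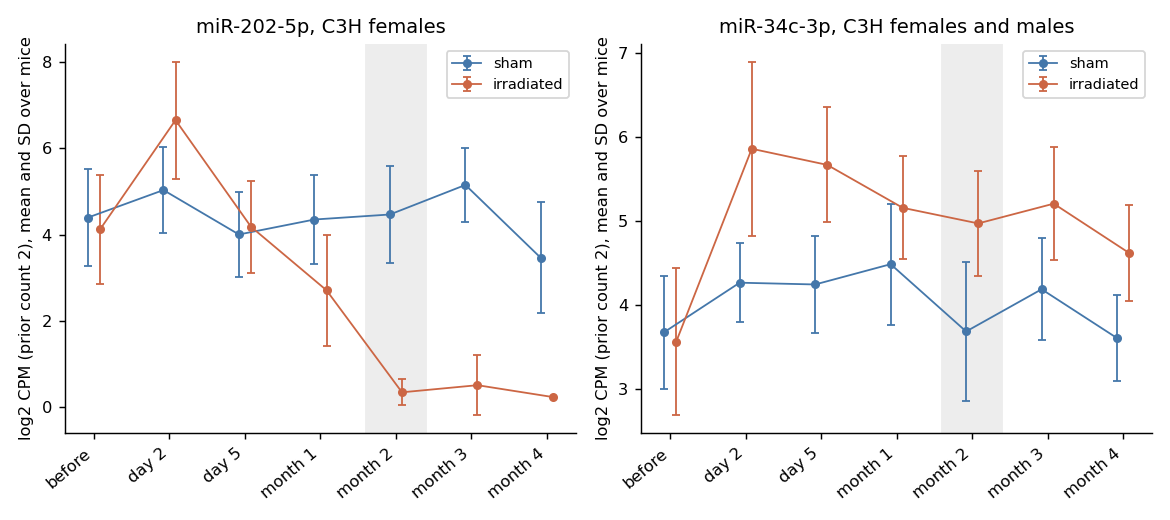
Points are means over C3H mice and bars the SD, in log2 CPM (prior count 2) on the y axis, at each bleeding on the x axis for sham and irradiated mice (month 2 shaded). The left panel shows miR-202-5p in females, where irradiated mice reach 0.34 at month 2 against 4.46 in sham mice, and the right panel miR-34c-3p in both sexes, with 4.97 against 3.69 at month 2.

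C57Bl/6 females at month 2 gave the nearest comparison. There 8 of 8 sham females had reads of miR-202-5p (322 in all), against 7 of 20 irradiated females (14 reads), with a fitted log2 fold change of -5.47 (SE 0.61, adjusted p = 1.66e-15). With both sexes pooled, the month 2 effect in C3H minus that in C57Bl/6 was -0.70 (SE 1.10, adjusted p = 1.00), which does not show that the strains were alike.

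Of the miR-34 family, miR-34c-3p was higher in irradiated mice. Its log2 CPM ran from 2.59 (lowest) through 3.59 (median) to 5.49 (highest) in sham mice and from 3.98 through 4.98 to 5.90 in irradiated mice. All 28 irradiated mice were above the median of the sham mice, and 7 were above the highest sham mouse. The fitted log2 fold change was 1.24 (SE 0.26, edgeR, adjusted p = 0.000759), and the means differed by 1.29 (permutation test, two-sided, p = 2e-05). The call held in 44 of 44 fits that left out 1 mouse.

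Separation was clearer in males, whose sham level was lower. Sham males had a log2 CPM of miR-34c-3p of 2.59, 3.18 and 3.99 (lowest, median, highest) and irradiated males of 3.98, 4.49 and 5.89, so that 11 of 13 irradiated males were above the highest sham male. Sham females ran from 3.03 through 4.22 to 5.49 and irradiated females from 4.28 through 5.18 to 5.90, with 4 of 15 above the highest sham female. The means differed by 1.55 in males (exact permutation test, two-sided, p = 3.93e-05) and by 0.99 in females (exact permutation test, two-sided, p = 0.00104). In the model across all miRNA, the effect passed in males (1.73, SE 0.37, adjusted p = 0.00146) and not in females (0.92, SE 0.34, adjusted p = 0.419). The difference between the sexes was -0.81 (SE 0.48, unadjusted p = 0.0922, adjusted p = 1.00). By sex and letter, irradiated minus sham means were 1.27 and 0.73 in A and B females and 1.10 and 2.23 in A and B males. Without the males with letter B, the pooled effect was 0.98 and no longer passed (adjusted p = 0.106).

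The other tested members of the family were all fitted higher in irradiated mice, and none of them passed. miR-34a-5p, the most abundant of them and a well-known p53 target, had a log2 CPM of 6.70, 7.58 and 8.38 in sham and 7.39, 8.18 and 9.30 in irradiated mice (lowest, median, highest). The groups overlapped, with the irradiated mice shifted by 0.74 in the fit (SE 0.21, adjusted p = 0.0592). This p lay close to the threshold and fell below it in 9 of 15 alternative analyses, among them the random replicate block for mouse (adjusted p = 0.0311). miR-34b-3p, which shares the seed of miR-34c-3p, ran from 1.93 through 3.67 to 4.84 in sham and from 3.39 through 4.23 to 5.64 in irradiated mice (log2 fold change 0.80, SE 0.28, adjusted p = 0.233). miR-34c-5p, from the other arm of the miR-34c hairpin, ran from 2.60 through 4.87 to 5.90 in sham and from 3.84 through 5.17 to 6.29 in irradiated mice (0.50, SE 0.25, adjusted p = 0.505). The less abundant miR-34b-5p had a fitted log2 fold change of 0.65 (SE 0.62) and miR-449a-5p, a seed mate from another locus, of 0.11 (SE 0.46). Of the 6 family members tested, 1 was called higher (miR-34c-3p), beside 0.207% of all miRNA tested. With miR-34c-3p included, 4 had an unadjusted p under 0.05, all in the higher direction, beside 2.9% of all miRNA. The median log2 fold change was 0.70 against -0.07 over all 483 miRNA. The genes of miR-34b and miR-34c lie close together, so these members are not independent.

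**Figure D4:**
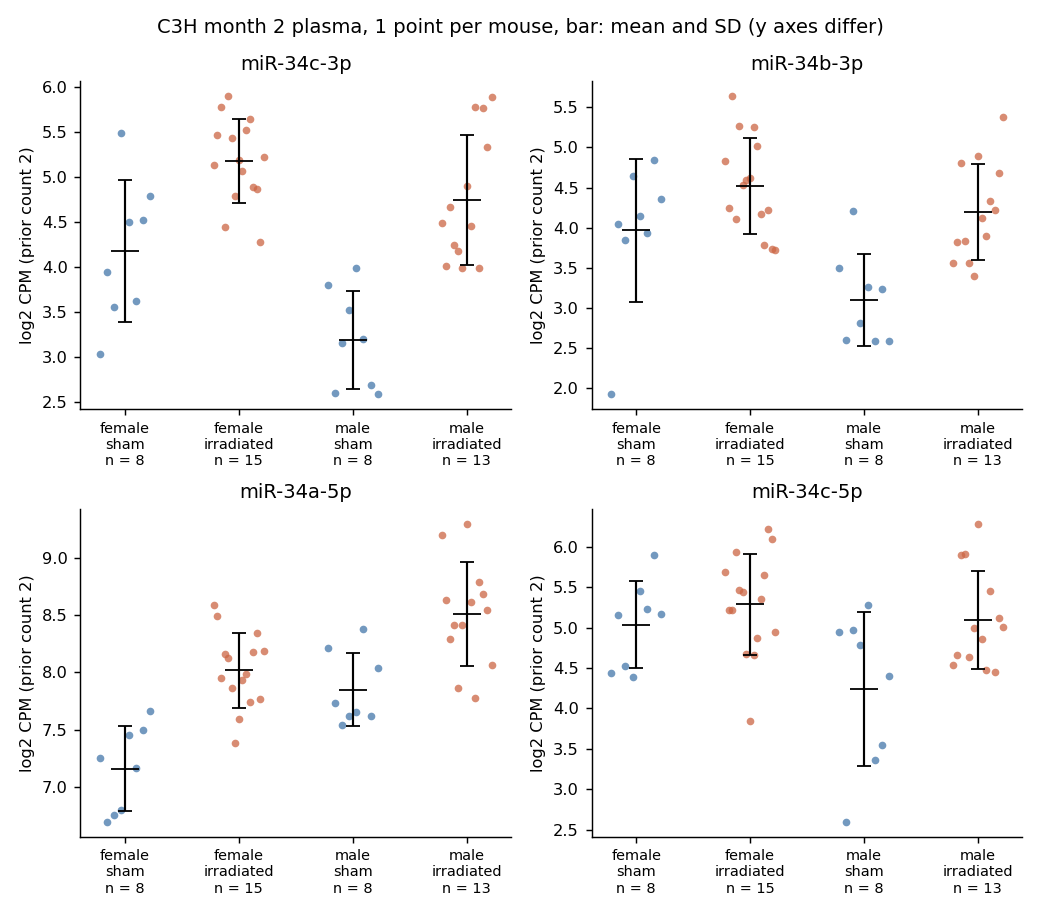
Each point is 1 mouse, with log2 CPM (prior count 2) on the y axis for 4 members of the miR-34 family by sex and treatment, bars giving the mean and SD, and y axes differing between panels. For miR-34c-3p, 11 of 13 irradiated males and 4 of 15 irradiated females lie above the highest sham mouse of their sex.

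Against their own samples before irradiation, 27 of 28 irradiated mice had more miR-34c-3p at month 2 (mean change 1.26, SD 0.92), as did 9 of 16 sham mice (mean change 0.07, SD 1.14). For miR-34a-5p all 28 irradiated and all 16 sham mice had more than before irradiation, by 2.77 (SD 0.78) and 2.02 (SD 0.70). The rise of miR-34a-5p with time in sham mice was thus larger than its month 2 effect of irradiation. The month 2 effect minus the effect before irradiation was 1.28 for miR-34c-3p (SE 0.32, edgeR, adjusted p = 0.00932).

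The effect on miR-34c-3p was 1.92 at day 2 (SE 0.26, adjusted p = 1.25e-10), 1.51 at day 5 (SE 0.26, adjusted p = 1.39e-06), 0.64 at month 1 (SE 0.18, adjusted p = 0.0177), 1.24 at month 2, 1.09 at month 3 (SE 0.26, adjusted p = 0.00441) and 1.08 at month 4 (SE 0.28, adjusted p = 0.0298). It passed at each of these 6 bleedings, at which 4.97%, 3.11%, 3.31%, 0.621%, 2.07% and 0.414% of all tested miRNA passed. The month 2 effect differed from that at month 1 by 0.60 (SE 0.31, unadjusted p = 0.0548, adjusted p = 0.997), and in irradiated mice the level itself did not rise over that interval. There 22 of 28 irradiated mice had less at month 2 than at month 1 (mean change -0.51, SD 0.61), as did 13 of 16 sham mice (mean change -1.20, SD 0.98). In C57Bl/6 mice the month 2 effect was 1.13 (SE 0.25, adjusted p = 0.00113), where 3.31% of those tested passed.

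Below the threshold, the miRNA with the smallest p included let-7g-5p, of the let-7 family that restrains proliferation and is abundant in blood. Its log2 CPM was 12.31, 12.63 and 14.25 in sham and 11.71, 12.35 and 13.26 in irradiated mice (lowest, median, highest), largely overlapping, with a fitted log2 fold change of -0.48 (SE 0.14, adjusted p = 0.0818). All 9 tested miRNA with this seed were fitted lower, beside 292 of all 483, with a median of -0.30 against -0.07 over all miRNA. Only let-7g-5p and let-7c-5p (-0.46) had an unadjusted p under 0.05, where 6% of all miRNA tested were lower at that level. This family was picked out after its values were seen. let-7g-5p had also been lower at month 1 (-0.35, adjusted p = 0.0248).

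Other miRNA fitted lower without passing were miR-7115-5p (-2.28), miR-30e-3p (-0.60), miR-30a-3p (-0.43), miR-339-5p (-0.50), miR-182-5p (-0.68), miR-129-5p (-0.97), miR-183-5p (-0.70), miR-148a-3p (-0.75) and miR-1843a-5p (-0.50), with adjusted p from 0.0900 to 0.326. Those fitted higher without passing, beside miR-34a-5p and miR-34b-3p, were miR-122-5p (1.04), miR-184-5p (1.64), miR-3103-3p (1.60), miR-146a-5p (0.37), miR-5107-3p (1.59), miR-5114 (1.43), miR-452-3p (1.40) and miR-27a-3p (0.28), with adjusted p from 0.149 to 0.501. Some of these rested on few reads. miR-7115-5p, for example, had 4 reads over 3 of 28 irradiated mice and 22 reads over 5 of 16 sham mice.

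The lung and other epithelium list held 10 tested miRNA, and 0 passed by edgeR. In it 9 were fitted lower and 1 higher, with a median of -0.33 against -0.07 over all miRNA, of which 292 of 483 were fitted lower. At an unadjusted p under 0.05, 5 of the 10 were lower, beside 6% of all miRNA tested. These 5 were miR-182-5p, miR-183-5p and miR-96-5p (-0.86), which are cut from a single transcript, and miR-200c-3p (-0.83) and miR-141-3p (-0.48), which form another cluster. The log2 CPM of miR-183-5p was 9.67, 10.51 and 12.80 in sham and 9.04, 10.25 and 11.63 in irradiated mice (lowest, median, highest). Medians differed less than the extremes, with the highest sham mouse well above all irradiated mice. The other miR-200 members, miR-200a-3p (-0.15), miR-200b-3p (-0.18) and miR-429-3p (-0.18), were near the median of all miRNA.

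In the liver list 0 of 5 passed by edgeR and 1, miR-122-5p, had an unadjusted p under 0.05. The log2 CPM of miR-122-5p was 10.70, 11.40 and 12.39 in sham and 10.62, 12.30 and 13.85 in irradiated mice (lowest, median, highest), so that the median irradiated mouse was close to the highest sham mouse (log2 fold change 1.04, SE 0.34, adjusted p = 0.149). Before irradiation the later irradiated mice had had less of it (-0.65, SE 0.22, unadjusted p = 0.00357, adjusted p = 0.695). That earlier difference was -1.14 in males (SE 0.30, adjusted p = 0.0650) and -0.02 in females (SE 0.31), while the month 2 effect was 0.63 in males (SE 0.46) and 1.29 in females (SE 0.47), neither past the threshold. With the sexes pooled, the month 2 effect minus that earlier difference was 1.69 (SE 0.41, adjusted p = 0.00932). This call was lost with the mouse as a fixed replicate block (1.22, adjusted p = 0.126) and as a random one (1.06, adjusted p = 0.468). Both block fits used limma-voom, which lost the call without a block too, so the loss cannot be credited to the block.

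The remaining lists held 0 calls by edgeR, apart from the gonad list and the miRNA named by the study, given last. Unadjusted p values under 0.05 numbered 1 of 10 for leukocytes (miR-146a-5p, higher), 1 of 6 for the miR-106a to miR-363 cluster (miR-106a-5p, higher), and 0 for red blood cells (7 tested), pancreas (6), muscle and heart (7), stroma and fibrosis (12), endothelium (2) and the miR-17 to miR-92a cluster (6), beside 8.9% of all miRNA tested. Medians of these lists ran from -0.16 (muscle and heart) to 0.12 (endothelium). Of 8 miRNA in the gonad list, 2 had enough reads to be tested, the arms of miR-202. Both were called lower, beside 0.414% of all miRNA tested. They come from a single hairpin, so they are not independent and say nothing about the rest of the list. Of 25 miRNA that the study named for plasma, 1 was called higher and 1 lower, beside 0.207% and 0.414% of all miRNA tested. That is no independent evidence, since they were named from these samples.

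The 16 miRNA called at month 1 in C3H mice (3.31% of those tested) were followed to month 2. They were chosen by their month 1 effects, from 90 mice against 44 at month 2, so smaller effects and fewer calls at month 2 show no change by themselves. Of these 16, 1 passed at month 2 (miR-34c-3p), beside 0.621% of all miRNA tested. An unadjusted p under 0.05 at month 2 was found for 7, beside 8.9% of all. The fitted effect was smaller at month 2 than at month 1 for 14. The month 2 mice had been bled at month 1 as well, so the samples of these months are not independent. Members of the X-linked miR-106a to miR-363 cluster, known for promoting the cell cycle, had led at month 1. The log2 CPM of miR-18b-5p at month 1 was 3.01, 4.50 and 5.50 in sham mice and 4.49, 5.77 and 7.42 in irradiated mice (lowest, median, highest). At month 2 it was 3.19, 4.63 and 5.43 in sham mice and 3.33, 4.77 and 6.12 in irradiated mice, with the groups overlapping almost entirely. Its effect was 1.46 at month 1 (SE 0.17, adjusted p = 1.23e-13) and 0.33 at month 2 (SE 0.24, adjusted p = 0.728), and the difference of -1.13 (SE 0.29, adjusted p = 0.0407) was the single one past the threshold (0.207% of those tested). Of its neighbours in the cluster, miR-106a-5p and miR-20b-5p differed in the same direction without passing, each by -0.70 (adjusted p = 0.362 for both). miR-150-5p, a lymphocyte miRNA, was at -0.62 at month 1 and -0.22 at month 2 (difference 0.40, unadjusted p = 0.0336, adjusted p = 0.997).
The other miRNA called at month 1 mostly kept their direction. Month 1 and month 2 effects were -0.48 and -0.28 for miR-103-3p, -0.95 and -0.76 for miR-1249-3p, -1.12 and -1.002 for miR-135a-5p, -0.44 and -0.38 for miR-1839-5p, -0.31 and -0.21 for miR-340-5p, -0.61 and -0.60 for miR-365-3p, and 0.31 and 0.21 for miR-24-3p. The sign turned for miR-27b-3p (0.28 and -0.05) and for the rare miR-6961-3p (1.82 and -1.04), with adjusted p of 0.697 and 0.117 for the difference.

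**Figure D5:**
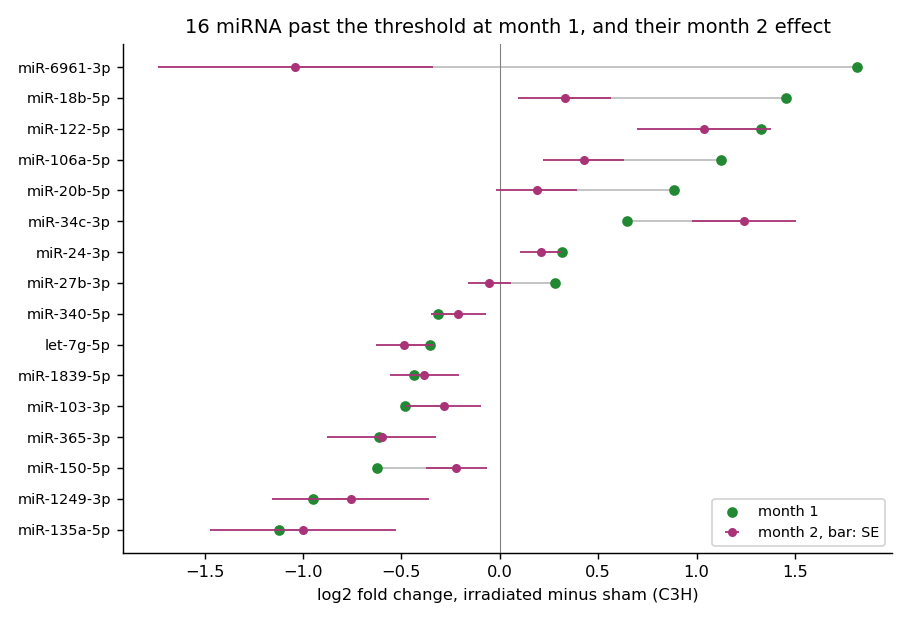
Each line is 1 of the 16 miRNA called in C3H mice at month 1, with the log2 fold change of irradiated over sham on the x axis at month 1 (green) and month 2 (purple, bar SE). The month 2 effect of miR-18b-5p, 0.33, lies far from its month 1 effect of 1.46, and miR-34c-3p moves the other way, from 0.64 to 1.24. The month 1 values chose these miRNA.

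Between month 2 and month 3, edgeR called 0 differences (0% of those tested, with 23 or 4.76% at an unadjusted p under 0.05, and 0 with limma-voom or DESeq2 at the adjusted threshold). Of the 10 miRNA called at month 3 (2.07% of those tested), 3 were called at month 2, beside 0.621% of all miRNA tested. These were both miR-202 arms and miR-34c-3p. The samples of these months come in part from the same mice, so they are not independent. The other 7 had month 2 effects from -1.69 (miR-219a-2-3p) to 1.59 (miR-5107-3p), among them 0.20 for miR-1247-5p, -0.15 for miR-125a-5p, 0.21 for miR-24-3p, 0.04 for miR-146b-5p and 0.12 for miR-106b-3p. Of the 10, 5 had an unadjusted p under 0.05 at month 2, beside 8.9% of all miRNA tested.

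Against C57Bl/6 mice at the same month, 1 miRNA differed in its response (0.207% of those tested). miR-216a-5p, a miRNA made in pancreatic acinar cells, had a month 2 effect of -0.04 in C3H (SE 0.34) and 3.06 in C57Bl/6 mice (SE 0.40), a difference of -3.10 (SE 0.50, adjusted p = 3.95e-07). Its log2 CPM in C3H mice ran from 3.75 through 4.38 to 5.73 in sham and from 3.49 through 4.41 to 5.81 in irradiated mice, which covered the same range. In C57Bl/6 sham mice it ran from 0.23 through 2.42 to 3.99, so the strains differed in the sham level as well. In C57Bl/6 irradiated mice it ran from 1.35 through 4.93 to 7.17. The 3 miRNA called in C3H showed differences of -0.70 (miR-202-5p), -0.66 (miR-202-3p) and 0.12 (miR-34c-3p) between strains, all with an adjusted p of 1.00.

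Within each sex, 4 miRNA passed in females (0.828% of those tested), all lower, and 1 in males (0.207%), miR-34c-3p. The other 2 in females were miR-143-3p, made in smooth muscle, and miR-7115-5p. miR-143-3p had a log2 CPM of 11.78, 12.73 and 15.36 in sham females and 12.09, 12.69 and 13.89 in irradiated females (lowest, median, highest). The medians were nearly the same, the SD was 1.27 in sham and 0.50 in irradiated females, and the fitted effect was -0.95 (SE 0.25, adjusted p = 0.0215). By letter, irradiated minus sham means were -0.94 in A and 0.00 in B females. miR-7115-5p had reads in 3 of 8 sham females (11 reads) and 0 of 15 irradiated females (adjusted p = 0.0304), and no fold is given against a group without a read. This miRNA averaged under 1 CPM, a range in which the test gave too many small p values on simulated data.

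Of the 28 irradiated mice, 17 were sampled again at month 4 and 11 were not. Between these groups at month 2, 1 miRNA passed (0.207% of those tested), the rare miR-3064-5p, with 0 of 17 mice with a read against 5 of 11 (22 reads). In sham mice 2 of 16 had a read. This miRNA too averaged under 1 CPM, and the call was lost with limma-voom, DESeq2 and the study's own normalization. None of the 3 miRNA called for irradiation passed, with a difference of -0.07 (SE 0.31) for miR-34c-3p. Why a mouse has no month 4 sample is not in the labels.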

How the data were processed

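Small RNA libraries were made with a miRNA kit from extracts of mouse plasma, 1 library a bleeding, and replicates were not pooled. The authors trimmed the reads and counted them per mature miRNA with a BaseSpace small RNA application set to mm10, and they deposited whole-number counts that had not been normalized. The miRBase release and the use of molecular identifiers are not given in the sources used here. The Poisson intervals take each read as an independent count, and whether the counts meet this is not known. They cover no difference between mice. The study left out hemolysed plasma.

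Samples were grouped by strain, time and irradiation from the labels. The edgeR quasi-likelihood test (edgeR 4.0.16, R 4.3.3) with TMM scaling and Benjamini-Hochberg adjustment was fitted on all 899 samples, so that all groups shared 1 estimate of the spread, over 483 of 1915 miRNA (filterByExpr of edgeR removed the others for low counts). A second fit split groups by sex. The threshold was an adjusted p of 0.05. Each SE of an edgeR fit is the absolute log2 fold change divided by the square root of the F statistic of the test. It was not estimated separately, so it is approximate, above all where a group had hardly any reads. Levels are log2 CPM with a prior count of 2, and exact or permutation tests (100000 resamples) were run for the 3 called miRNA. Alternatives used limma 3.58.1, DESeq2 1.42.0, other scaling, filters and samples, and the mouse as a block. The block fits used limma-voom, so they differed from the main fit in the test as well as in the block. The titles number the mice, and samples of a number were taken to come from the same mouse. The series holds 196 such numbers, which is more than the mice that the study reports. Deviations from group means correlated by 0.0469 on average over 261 sample pairs that share a mouse and by -0.00499 over 11223 other pairs, across 145 miRNA with a mean CPM of at least 50.

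The text names miRNA called at month 2, the 10 with the smallest p in each direction after them, list members, miRNA called at month 1 or month 3, and those called in the other contrasts. The members and lists were chosen with earlier results of these data known. The lists cover the miR-34 family, gonad, leukocytes, red blood cells, liver, pancreas, muscle and heart, epithelium, stroma, endothelium, 2 clusters and the miRNA named by the study. Libraries with identical counts numbered 0. The fits were tested on simulated data, in which unchanged miRNA under 1 CPM had unadjusted p values under the threshold too often, so calls at that level are less certain.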

Additional observations from a re-analysis of the deposited data

Results flagged for a closer look

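Of 26 sets of values tested for an outlying mouse with Dixon's test, 4 held one, where chance gives about 1 in 20. Sham male mouse 2001 had the most miRNA detected among the sham males (545, next 463), the lowest share of reads in the top miRNA (31.5%, next 47.4%) and the highest log2 CPM of miR-202-3p (0.68 from a single read, all others without a read at 0.23). With all others tied at that value any single read would have been picked out, so the last of these carries no information beside the chance rate. Sham female mouse 2025 had the lowest log2 CPM of miR-34b-3p among the sham females, 1.93, with the next at 3.84. The cause of these values was not tested.

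The remaining results differed between groups by a test of the difference itself, each on the log2 scale. Between females and males, the irradiation effect at month 2 differed by -6.72 for miR-202-5p and by -8.37 for miR-202-3p. Between C3H and C57Bl/6 mice it differed by -3.10 for miR-216a-5p. Between month 2 and month 1 it differed by -1.13 for miR-18b-5p. Between month 2 and the time before irradiation it differed by -4.49 for miR-202-5p, 1.69 for miR-122-5p and 1.28 for miR-34c-3p.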

How the results depend on the processing

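Without any filter on low counts the number of calls at month 2 rose from 3 to 17, and it was 5 with only the groups contrasted in the fit, 1 without females with letter B and 1 without females. Leaving out 1 mouse at a time gave 3 to 6, with 6 without irradiated mouse 2009 (adding miR-7115-5p, let-7g-5p and miR-34a-5p) and 6 without sham mouse 2016 (adding miR-34a-5p, miR-30e-3p and let-7g-5p), and the 3 calls held in all 44. The effect of miR-202-3p turned to 2.66 without females (adjusted p = 0.662), and that of miR-202-5p was then -0.10. miR-34c-3p did not pass without males (0.99, adjusted p = 0.484). For month 2 minus month 1, calls went from 1 to 2 with DESeq2 size factors, 0 with the study's normalization, 15 without a filter, 2 with only the groups contrasted and 3 with sex in the model. For month 2 minus month 3 they went from 0 to 23 without a filter. For month 2 minus before irradiation they went from 3 to 1 with limma-voom, the study's normalization or the random replicate block, and to 20 without a filter. The fixed replicate block for mouse also gave 3, with miR-34a-5p in place of miR-122-5p. For the strains they went from 1 to 9 without a filter and 2 with only the groups contrasted, and for the sexes from 2 to 8 without a filter and 1 at a mean CPM of at least 10. For mice with and without a month 4 sample, they went from 1 to 0 with limma-voom, DESeq2, the study's normalization, a mean CPM of at least 10, only the groups contrasted or the random replicate block, and to 10 without a filter. The causes of these changes were not tested. The median log2 fold change of all miRNA stayed between -0.08 and 0 under every scaling tried. Depth limits the rare miRNA most, and no month 2 library had under 500000 reads, so that alternative could not be run.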
